A study of Mus musculus with 8 samples.

Results

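The genes described here form a list of 40 endothelial and angiogenesis genes, chosen by name for their known roles in blood and lymphatic vessels. The choice was made with earlier results of these data known. Of the 40 genes, 39 had a probe set annotated to that gene alone among the 28000 probe sets of the array table. Ednra, an endothelin receptor, was the gene with none. Each gene was represented by its brightest probe set, the one with the highest mean signal over all arrays, and 38 of the 39 genes reached a signal of 100 on 4 arrays and were tested. Sele did not reach this signal. The arrays carry uterine RNA of pregnant mice at gestational day 18.0, from 4 wild-type C57BL/6 females and 4 Cox-1 KO females of a C57BL/6 x Sv129 background, all given an age of 6 to 16 weeks in the labels. The methods of the study give a narrower range of ages and another 129 substrain, 129P2. Cox-1 KO mice, called knockouts from here, lack cyclooxygenase-1, the product of Ptgs1, and deliver late, and the question was which uterine genes differ in them before labor. Strain background and genotype cannot be told apart in this design. The labels name no treatment. Fetuses, fetal membranes and placentas were removed before RNA was taken, and each array held the RNA of a single mouse.

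Blood vessels are lined by endothelial cells, which grow out under vascular endothelial growth factors (VEGFs) acting on receptor tyrosine kinases. Angiopoietins and their Tie receptors steady the new vessel, Notch signalling decides which cell leads a sprout, and pericytes drawn in by platelet-derived growth factor wrap it. In the gravid uterus the maternal vessels widen and multiply to feed the implantation sites, and the endothelin peptides made by vessels also act on uterine muscle.

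Signals are MAS5 values, the Affymetrix brightness of a probe set on a linear scale. Ptgs1 itself was 7048, 10610, 10756 and 10508 in wild-type replicates 1 to 4, against 88, 122, 76 and 136 in knockout replicates 1 to 4, as the genotype labels give it. The uterine markers Pgr, Esr1, Hoxa10 and Hoxa11 were measured on every array, with a summed signal of 39640 to 44759 in wild-type against 34421 to 40299 in knockout uterus. Of 8 listed trophoblast markers only Tpbpa and Prl8a9 had an annotated probe set. Their sum was 6564 on wild-type replicate 1 and 15022 to 21308 on the other arrays. The arrays also differed in yolk sac transcripts. The summed signal of 10 such genes was 273668 on wild-type replicate 4 and 386638, 329769 and 304373 on knockout replicates 1, 3 and 4, against 30326 to 40397 on the other 4 arrays. Rbp4, one of these genes, was bright on every array, at 26827 to 39535. It made up most of the sum on the 4 arrays with low sums. As 3 of the 4 arrays high in these transcripts are Cox-1 KO, values with their level as a covariate are given beside results that they move by 0.1 or more on the log2 scale or whose unadjusted p is under 0.05.

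At day 18.0 the signals of Pecam1 and Sox18 were lower and that of Icam1 higher on every knockout array than on any wild-type array, but no gene of the list passed the test over the whole array. None of the 38 genes had a limma adjusted p under 0.05 over all 26444 probe sets tested, and the smallest was 0.421, for Sox18. Among all 12662 genes on their brightest probe set 0.0079% passed. At an unadjusted p under 0.05, 4 genes were lower in Cox-1 KO uterus (Sox18, Pecam1, Plvap and Cd34) and Icam1 was the single gene that was higher. These are 10.5% and 2.63% of the 38 genes, where 4.37% of all genes were lower and 4.84% higher. The groups did not overlap for Sox18 and Pecam1, which were lower, or for Icam1, which was higher. These are 5.26% and 2.63% of the genes, against 2.5% and 1.83% of all genes. With the methods' t-test and their ratio of mean signals of 1.5 or more no gene of the list passed (0.679% of all genes did). At an unadjusted p under 0.05 alone that test gave 2 lower genes and no higher gene of the list. The share of all genes was not computed for that test without the ratio, so these counts cannot be set against it.

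The genes of the list lay on both sides of 0. The log2 fold change, Cox-1 KO minus wild-type, was above 0 for 20 genes and below 0 for 18, with a median of 0.01, and the median of all genes was -0.01. For 35 of the 38 genes the 95% interval of the fold change lay within 1.5-fold. The other 3 genes were Vegfc, Angpt1 and Prox1, which were dim or varied between arrays. RNA of whole uterus was measured, so fewer vessel cells and less RNA per vessel cell cannot be told apart.

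**Figure D1:**
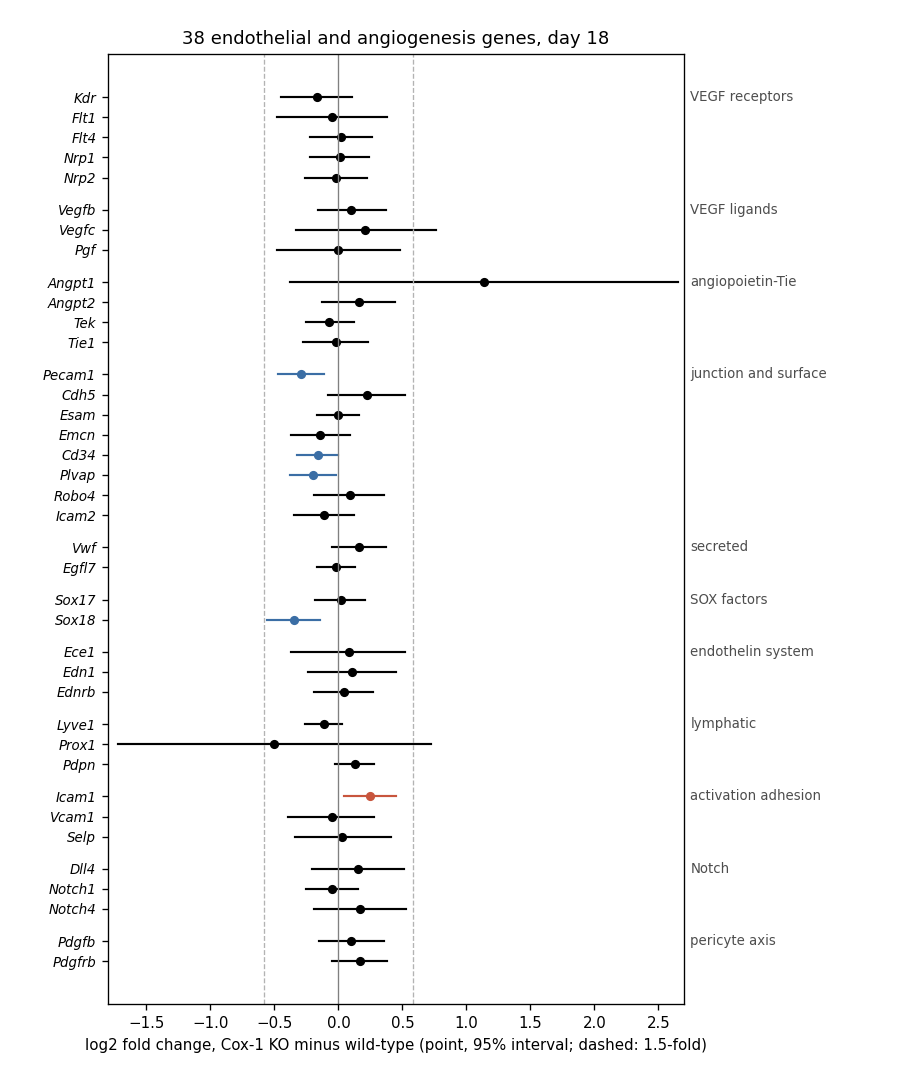
The log2 fold change (Cox-1 KO minus wild-type, horizontal axis) of each of the 38 tested genes, grouped by role, with the limma 95% interval as a line. Genes lower at an unadjusted p under 0.05 are blue and the single higher gene, Icam1, is red, and the dashed lines at 1.5-fold enclose 35 of the 38 intervals.

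Surface and junction proteins hold endothelial cells together and mark them, and 3 of the 8 measured here were lower at an unadjusted p under 0.05, as were 4.37% of all genes. Pecam1 (CD31), an adhesion protein of endothelial contacts that is also found on platelets and leukocytes, lies on chromosome 11 (106654213 to 106715281, GRCm38.p6). Pecam1 had a signal of 3667, 3550, 3584 and 3306 in wild-type replicates 1 to 4, against 2500, 3227, 2878 and 2973 in knockout replicates 1 to 4. Every knockout array thus lay below every wild-type array. The mean was 3526.75 ± 155 in wild-type against 2894.5 ± 301 in knockout uterus (SD, n = 4 mice each), a ratio of 0.821 with a 95% interval of 0.722 to 0.927. Here and below a ratio is that of the mean signals, while the interval given for it is that of the limma fold change. In log2 terms the difference was -0.29 (standard error, SE, 0.0819, limma adjusted p = 0.423, unadjusted p = 0.00462). An exact two-sided permutation test gave p = 0.0286, the smallest that 4 arrays against 4 allow. The unadjusted p stayed between 0.00154 and 0.0133 when any single array was left out. With the yolk sac level as a covariate it was 0.0504, at a log2 fold change of -0.18. Leaving out the 4 arrays high in those transcripts, which keeps knockout replicate 2 alone in its group, gave -0.16 and an unadjusted p of 0.2.

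Plvap, which forms the diaphragms of endothelial fenestrae, and Cd34, a sialomucin of capillary endothelium that stromal progenitors also carry, were lower with overlapping groups. Plvap had a signal of 3956, 3963, 3695 and 3937 in wild-type replicates 1 to 4, against 3024, 3132, 3575 and 3861 in knockout replicates 1 to 4. Knockout replicate 4 reached the wild-type range, and replicates 1 and 2 were the lowest. On the log2 scale the difference was -0.20 (SE 0.0823, limma adjusted p = 0.541, unadjusted p = 0.0329), and -0.24 with the yolk sac covariate. Its unadjusted p was above 0.05 without wild-type replicate 1 (0.0623), 2 (0.0695) or 4 (0.0635) or knockout replicate 1 (0.0965) or 2 (0.0894). Cd34 had a signal of 11372, 10049, 9775 and 8853 in wild-type replicates 1 to 4, against 8844, 9341, 8913 and 8584 in knockout replicates 1 to 4. Wild-type replicate 1 was the brightest array, and wild-type replicate 4 lay among the knockout arrays. Cd34 differed by -0.16 on the log2 scale (SE 0.0725, limma adjusted p = 0.562, unadjusted p = 0.0478). It became -0.10 without wild-type replicate 1 and -0.06 with the yolk sac covariate, at unadjusted p of 0.137 and 0.395. That p stayed under 0.05 only without wild-type replicate 4 or knockout replicate 2 among the 8 arrays left out in turn. How far yolk sac transcripts take part in these values was not tested.

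Of the other 5 surface genes, 3 had a log2 fold change below 0 and 2 above it, none at an unadjusted p under 0.05. Cdh5, or VE-cadherin, the adherens junction protein of endothelial cells, had a signal of 2432, 2538, 2769 and 2455 in wild-type replicates 1 to 4, against 2883, 3404, 2183 and 3634 in knockout replicates 1 to 4. Of the knockout arrays, 3 were above all wild-type arrays and replicate 3 was below them all. For Cdh5 the log2 fold change was 0.22 and its 95% interval -0.08 to 0.52 (limma adjusted p = 0.654), and 0.32 with the yolk sac covariate. Esam, a tight junction adhesion protein, had means of 2727.5 ± 128 in wild-type against 2723.5 ± 231 in knockout uterus (SD, n = 4 mice each), and the interval of its ratio was 0.887 to 1.12. Emcn, the sialomucin of capillaries and veins, went from 2733.75 ± 331 to 2487.5 ± 287, Robo4, a guidance receptor that guards vessel permeability, from 658 ± 92.7 to 695.75 ± 68.0, and Icam2, a constitutive ligand of leukocyte integrins, from 1161.75 ± 144 to 1071.75 ± 83.9 (SD, n = 4 mice each). None of these 3 had an adjusted p under 0.724.

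**Figure D2:**
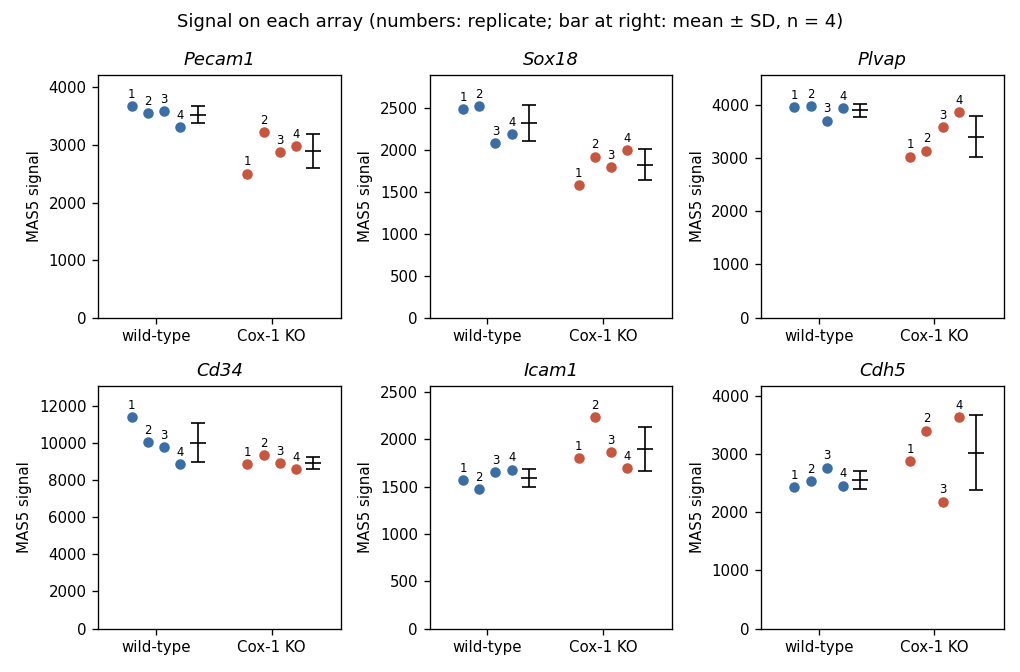
MAS5 signal (vertical axis, linear from 0) of Pecam1, Sox18, Plvap, Cd34, Icam1 and Cdh5 on each array (points, numbered by replicate), with the mean and SD of each genotype (bar at the right of the points, n = 4). The genotypes do not overlap for Pecam1, Sox18 and Icam1, and they do for the other 3 genes.

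Sox18, an endothelial transcription factor that switches on lymphatic fate, had the smallest p of the list. It lies on chromosome 2 (181669837 to 181671640, GRCm38.p6). Sox18 had a signal of 2485, 2519, 2085 and 2189 in wild-type replicates 1 to 4, against 1578, 1921, 1796 and 1998 in knockout replicates 1 to 4. Every knockout array was below every wild-type array. The mean was 2319.5 ± 215 in wild-type against 1823.25 ± 183 in knockout uterus (SD, n = 4 mice each), a ratio of 0.786 with a 95% interval of 0.679 to 0.909. On the log2 scale this was -0.35 (SE 0.0957, limma adjusted p = 0.421, unadjusted p = 0.00389), and the exact permutation p was 0.0286. The unadjusted p was 0.00289 to 0.0148 with any single array left out, and 0.0306 with the yolk sac covariate, at a log2 fold change of -0.27. It was 0.0845 without the 4 arrays high in yolk sac transcripts. Sox17, the related factor of arterial endothelium, had means of 2447 ± 168 and 2483.75 ± 247 (SD, n = 4 mice each), with a log2 fold change of 0.02 and an interval of -0.18 to 0.21. Its lowest array in either group was knockout replicate 1, at 2114, which was also the lowest array for Sox18, Pecam1 and Plvap. That array had the lowest sum of uterine markers, 34421, and the highest of yolk sac transcripts, 386638. Within its group it was the lowest for 12 of the 38 genes and the highest for 11. The part of tissue make-up in these values was not tested.

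Icam1, the inducible integrin ligand that lets leukocytes stop on the vessel wall, was the only gene of the list that was higher at an unadjusted p under 0.05. Its signal was 1571, 1471, 1650 and 1677 in wild-type replicates 1 to 4, against 1797, 2232, 1864 and 1693 in knockout replicates 1 to 4. The groups did not overlap, but knockout replicate 4 lay next to the brightest wild-type array and replicate 2 stood highest. The mean was 1592.25 ± 92.5 in wild-type against 1896.5 ± 234 in knockout uterus (SD, n = 4 mice each), a ratio of 1.19 with a 95% interval of 1.03 to 1.37. This gave a log2 fold change of 0.25 (SE 0.0948, limma adjusted p = 0.538, unadjusted p = 0.0248), with an exact permutation p of 0.0286. The unadjusted p was 0.0768 without knockout replicate 2, 0.071 without wild-type replicate 2 and 0.0519 with a replicate block. It was 0.0195 with the yolk sac covariate, at a log2 fold change of 0.31. Without the 4 arrays high in those transcripts the difference was 0.51 on the log2 scale at an unadjusted p of 0.00581, a value set by knockout replicate 2 alone. Icam1 is also made by macrophages. The summed signal of 5 macrophage markers was 27189 to 30431 in wild-type uterus, against 32984, 32998, 32718 and 29187 in knockout replicates 1 to 4. The markers differed among themselves, with log2 fold changes of 0.18 for Csf1r, 0.16 for Cd68, 0.00 for Mrc1 and Cd163 and -0.09 for Adgre1. The part of macrophages in the Icam1 values was not tested.

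The start regions of Icam1 and Cd34 are shown, as the genes among these 5 with an entry in the RefSeq promoter table (GRCm38.p6). Each runs from 250 bases before to 50 bases after the start of the gene, 5′ to 3′ on the + strand, and capitals mark matches to the motifs named after them. Icam1 lies at chr9:21015690-21015989 and Cd34 at chr1:194938571-194938870.
Icam1: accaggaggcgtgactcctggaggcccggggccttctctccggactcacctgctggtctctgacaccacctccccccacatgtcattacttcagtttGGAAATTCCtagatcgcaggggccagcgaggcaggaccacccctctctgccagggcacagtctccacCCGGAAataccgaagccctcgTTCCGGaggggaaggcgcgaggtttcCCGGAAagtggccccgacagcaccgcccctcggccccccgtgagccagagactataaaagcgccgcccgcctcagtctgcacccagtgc
Cd34: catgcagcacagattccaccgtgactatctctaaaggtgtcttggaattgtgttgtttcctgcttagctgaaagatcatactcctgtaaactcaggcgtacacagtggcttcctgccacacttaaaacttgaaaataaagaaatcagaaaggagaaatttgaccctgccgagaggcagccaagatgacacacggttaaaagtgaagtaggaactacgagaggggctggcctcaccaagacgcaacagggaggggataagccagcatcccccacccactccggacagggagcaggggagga
The letters GGAAATTCC, a form of the NF-kappaB site, and CCGGAA, a form of the ETS site, were searched on both strands. These letters were picked with the Icam1 sequence in view, since such a site is known there. The NF-kappaB letters lie at bases 98 to 106 of the Icam1 window, counted from its 5′ end, and in 0.322% of 27025 promoter windows of the same length. CCGGAA occurs 3 times in the Icam1 window, at bases 165 to 170, 186 to 191 (on the - strand) and 212 to 217, apart from the NF-kappaB letters, and in 15.2% of all windows. Neither of these exact strings of letters is found in the Cd34 window, and other forms of the sites were not searched. Of 25 genes of the list with a window, Icam1 was the only one with the NF-kappaB letters, and Icam1 and Kdr held CCGGAA. A match of letters is a description of the sequence, and binding was not measured.

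The other inducible adhesion genes differed by less than the spread between arrays or were not tested. Vcam1, which is displayed by activated endothelium and by decidual cells, had means of 1338.25 ± 184 in wild-type against 1302.25 ± 261 in knockout uterus (SD, n = 4 mice each), and the interval of its ratio was 0.766 to 1.21. Selp, the selectin stored in endothelial granules and platelets, had 529 ± 120 and 534.75 ± 75.3 (SD, n = 4 mice each), with a log2 fold change of 0.03. With the yolk sac covariate Vcam1 had 0.08 and Selp 0.22. Sele, the cytokine-induced selectin, was dim, with signals of 7, 89, 84 and 76 in wild-type replicates 1 to 4, against 92, 100, 131 and 89 in knockout replicates 1 to 4. All knockout arrays were at or above the brightest wild-type array for Sele, but at such signals no fold change is given.

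VEGF receptors and co-receptors differed by less than the spread between arrays, and all 5 of their intervals lay within 1.5-fold. Kdr, or VEGFR2, the main signalling receptor of blood vessels, had the smallest p of these. Its signal was 1280, 963, 1230 and 1013 in wild-type replicates 1 to 4, against 973, 1022, 1164 and 838 in knockout replicates 1 to 4, with wide overlap. Kdr had a log2 fold change of -0.17 (SE 0.127, limma adjusted p = 0.724), with an interval of -0.45 to 0.11. Flt4, or VEGFR3, the receptor of lymphatic growth, had 2169.75 ± 333 and 2186 ± 159 (SD, n = 4 mice each). The neuropilins Nrp1 and Nrp2, which bind VEGFs beside the kinases, had ratios of 0.996 each, with intervals of 0.857 to 1.18 and 0.837 to 1.16. Flt1, or VEGFR1, which binds VEGF with little signalling and is also made by trophoblast, was 709, 1219, 976 and 976 in wild-type replicates 1 to 4, against 1232, 1045, 793 and 708 in knockout replicates 1 to 4. The lowest wild-type array for Flt1 was replicate 1, the array lowest in trophoblast markers. That array was also the lowest wild-type array on other Flt1 probe sets, at 467 against 623 to 917 and at 377 against 744 to 774. On a further Flt1 probe set it was the highest of the wild-type arrays, at 705 against 525 to 578. The part of trophoblast in Flt1 was not tested. Its log2 fold change was -0.05 (limma adjusted p = 0.962).

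None of the 3 VEGF ligands passed the test. Vegfc, the lymphatic growth factor, was 345, 349, 265 and 366 in wild-type replicates 1 to 4, against 445, 350, 579 and 235 in knockout replicates 1 to 4. The knockout arrays held both the highest and the lowest of these values, and the interval of the ratio, 0.797 to 1.69, reached past 1.5-fold. Its other 2 probe sets gave log2 fold changes of 0.31 and 0.26 beside 0.21 for the brightest, and none passed (limma adjusted p = 0.614 and 0.752 for the others and 0.82 for the brightest). With the yolk sac covariate the brightest gave 0.10. Vegfb, a ligand of VEGFR1, went from 771 ± 102 to 825.75 ± 79.7 (SD, n = 4 mice each). Pgf, placental growth factor, was 472, 487, 450 and 712 in wild-type replicates 1 to 4, against 650, 396, 409 and 699 in knockout replicates 1 to 4. Wild-type replicate 4 and knockout replicates 1 and 4, which are among the 4 arrays high in yolk sac transcripts, were the brightest, and knockout replicate 3, which is also among them, was not. Its log2 fold change was 0.00, and -0.33 with the yolk sac covariate at an unadjusted p of 0.126.

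None of the 4 angiopoietin and Tie receptor genes had an unadjusted p under 0.05. Tek, or Tie2, the receptor of both angiopoietins, had 1253.5 ± 57.4 in wild-type against 1196.75 ± 85.2 in knockout uterus (SD, n = 4 mice each), with an interval of the ratio of 0.839 to 1.08. Tie1, its partner, had 880.25 ± 28.7 and 875.25 ± 139 (SD, n = 4 mice each). Angpt2, the antagonist released by endothelium, went from 506.5 ± 66.8 to 563.25 ± 55.2 (SD, n = 4 mice each; log2 fold change 0.16, limma adjusted p = 0.744). Angpt1, the ligand made by cells around the vessel, was dim. Its signal was 212, 73, 13 and 58 in wild-type replicates 1 to 4, against 90, 132, 133 and 172 in knockout replicates 1 to 4. The brightest array for Angpt1 was a wild-type array, and its log2 fold change of 1.14 had an interval of -0.38 to 2.65. Setting signals under 100 to 100 reduced it to 0.13, and log2(signal + 32) to 0.67. It was 1.25 with the yolk sac covariate, 0.41 without wild-type replicate 3, and 1.76 without wild-type replicate 1 at an unadjusted p of 0.0151.

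Neither of the secreted products of endothelium, Vwf and Egfl7, had an unadjusted p under 0.05. Vwf, the clotting protein of endothelial granules, was 1482, 1350, 1352 and 1401 in wild-type replicates 1 to 4, against 1759, 1468, 1692 and 1359 in knockout replicates 1 to 4. Knockout replicates 1 and 3 were above all wild-type arrays and the other 2 were not. Vwf had a log2 fold change of 0.16 (SE 0.0951, limma adjusted p = 0.642). Vwf is also a platelet product, and the platelet gene Ppbp was likewise highest on knockout replicates 1 and 3, at 1487 and 1396, against 493 and 369 on knockout replicates 2 and 4 and 258 to 365 in wild-type. Itga2b was also higher on knockout replicates 1 and 3, at 665 and 637, than on 2 and 4, at 422 and 487. Its wild-type signals were 522 to 673. Among knockout arrays Pf4 was brightest on replicate 2 and Gp1bb on replicate 4. Pf4 and Itga2b had log2 fold changes of -0.08 and -0.12. Of 9 listed platelet genes 4 had a probe set, with a summed signal of 6010 to 6665 in wild-type against 5814 to 7441 in knockout uterus, and their part in the Vwf values was not tested. Egfl7, an endothelial matrix protein, varied least of all 38 genes, at 2379.75 ± 144 in wild-type against 2345.25 ± 20.6 in knockout uterus (SD, n = 4 mice each), and the interval of its ratio was 0.892 to 1.09.

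The endothelin system had 3 measured genes, all with a log2 fold change of 0.04 to 0.11. Edn1, the constrictor peptide that also contracts myometrium, was 568, 836, 721 and 857 in wild-type replicates 1 to 4, against 643, 968, 788 and 808 in knockout replicates 1 to 4. The lowest array of each group was replicate 1. Its log2 fold change was 0.11 (SE 0.157, limma adjusted p = 0.862), and -0.02 without wild-type replicate 1. Ednrb, the endothelin B receptor, had 11685 ± 375 in wild-type against 12128 ± 2010 in knockout uterus (SD, n = 4 mice each). Knockout replicate 1 was its lowest array, at 9316 against 11177 to 13927 on the others, and was also the lowest on its other probe sets, at 3262 and 1564. Ece1, the enzyme that cuts endothelin from its precursor, had 2 bright arrays, 2894 on wild-type replicate 4 and 3109 on knockout replicate 2, against 1635 to 1996 on the others. A second probe set of Ece1 had 1276 and 1768 on these 2 arrays and 1171 to 1727 on the others, so wild-type replicate 4 was not bright there. Ece1 had a log2 fold change of 0.08 on the first and -0.03 on the second.

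Lymphatic genes did not pass either. Lyve1, the hyaluronan receptor of lymphatic vessels and of some macrophages, was 7060, 8242, 8463 and 7588 in wild-type replicates 1 to 4, against 7507, 7230, 7172 and 7016 in knockout replicates 1 to 4. Wild-type replicate 1 lay within the Cox-1 KO range. Its difference was -0.11 on the log2 scale (SE 0.0648, limma adjusted p = 0.635), and -0.12 on its other probe set. Pdpn, or podoplanin, which is shared by lymphatic endothelium, mesothelium and stroma, went from 6635.75 ± 579 to 7223 ± 387 (SD, n = 4 mice each; log2 fold change 0.13, limma adjusted p = 0.635). The summed signal of 5 mesothelial markers was 5985 to 7630 in wild-type against 6227 to 10146 in knockout uterus, highest on knockout replicates 1 and 3. The markers differed among themselves, with log2 fold changes of 0.67 for Msln, 0.48 for Upk1b, 0.35 for Upk3b, 0.02 for Lrrn4 and -0.25 for Wt1. Pdpn was 7506 and 6907 on knockout replicates 1 and 3, against 6873 and 7606 on knockout replicates 2 and 4. The part of mesothelium in Pdpn was not tested. Prox1, the factor that sets lymphatic identity, was dim, with 127, 87, 227 and 168 in wild-type replicates 1 to 4, against 29, 211, 125 and 137 in knockout replicates 1 to 4. Its log2 fold change of -0.50 had an interval of -1.72 to 0.72, and became -0.16 with the yolk sac covariate.

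Of the 5 Notch and pericyte genes, 4 had a log2 fold change above 0 and Notch1 one below it, none at an unadjusted p under 0.05. Notch4, the endothelial receptor, was 499, 418, 431 and 502 in wild-type replicates 1 to 4, against 630, 546, 375 and 556 in knockout replicates 1 to 4. Of the knockout arrays 3 were above all wild-type arrays and replicate 3 was the lowest of all. Its log2 fold change was 0.17 (SE 0.163, limma adjusted p = 0.784). Dll4, the ligand of the leading sprout cell, went from 465 ± 53.7 to 522.5 ± 117 and Notch1 from 1084.25 ± 66.2 to 1048.75 ± 87.3 (SD, n = 4 mice each). Pdgfrb, the receptor by which pericytes are drawn to the vessel, was 4511, 3704, 5008 and 3766 in wild-type replicates 1 to 4, against 5029, 4901, 4624 and 4416 in knockout replicates 1 to 4. Wild-type replicates 2 and 4 were the lowest arrays, and wild-type replicate 3 lay with the knockout arrays. Pdgfrb had a log2 fold change of 0.17 (SE 0.0975, limma adjusted p = 0.636), and 0.01 on its other probe set. Pdgfb, its ligand from endothelium, had a log2 fold change of 0.10. With the yolk sac covariate Pdgfrb and Pdgfb had 0.24 each, at unadjusted p of 0.0512 and 0.0782.

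Several genes of the list could be read on more than 1 probe set. In all 65 probe sets were annotated to the 39 genes, and 15 genes had several. Of the 25 other probe sets that were tested, 12 had the same sign of the log2 fold change as the brightest probe set of their gene and 13 the opposite, and none had an unadjusted p under 0.05. Pecam1, Sox18, Plvap, Cd34 and Icam1 each had a single probe set, so their differences have no second reading. The signs were mixed for Nrp1, Nrp2, Egfl7 and Flt1, among others, while the probe sets of Vegfc, Lyve1, Pdgfb and Pdgfrb shared a sign. Cdh5 gave 0.22 on the brightest probe set and -0.03 on a dimmer one, and Dll4 gave 0.15 and -0.09.

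**Figure D3:**
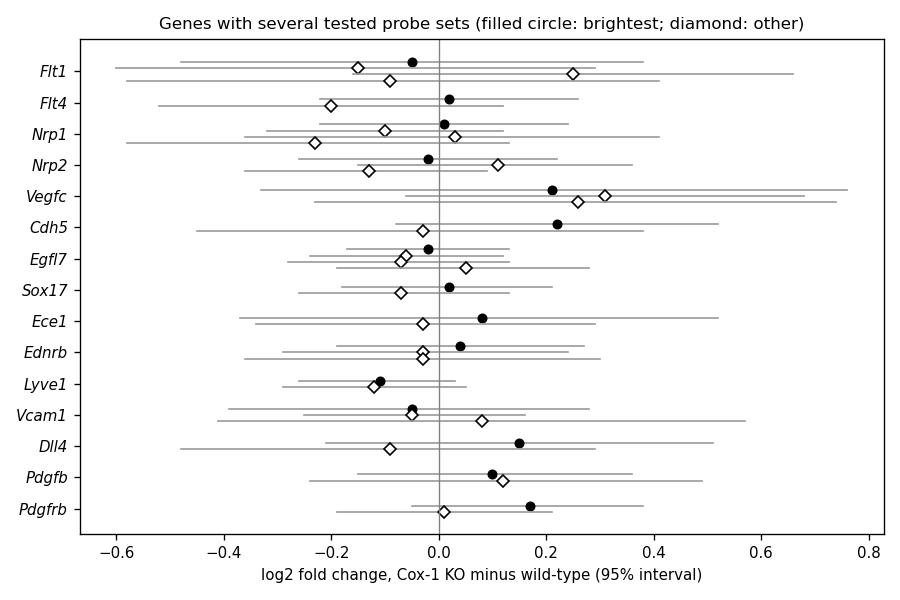
Log2 fold change (horizontal axis, Cox-1 KO minus wild-type) of every tested probe set of the 15 genes with several, with limma 95% intervals. Filled circles are the brightest probe set of a gene and open diamonds the others, and 13 of the 25 diamonds lie on the other side of 0 from their circle.

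No array was high or low for the list as a whole. The median deviation of the 38 genes from their mean over all arrays was 0.03, 0.00, -0.03 and -0.02 on the log2 scale for wild-type replicates 1 to 4, against 0.00, 0.07, 0.00 and -0.03 for knockout replicates 1 to 4. Knockout replicate 4 was the lowest of its group for 15 genes and replicate 2 for 3 genes. Wild-type replicate 1 was the highest of its group for 13 genes and the lowest for 12. The pooled SD between arrays of a genotype had a median of 0.168 on the log2 scale for the list and 0.154 for all genes, from 0.0618 for Egfl7 to 1.2 for Angpt1.

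**Figure D4:**
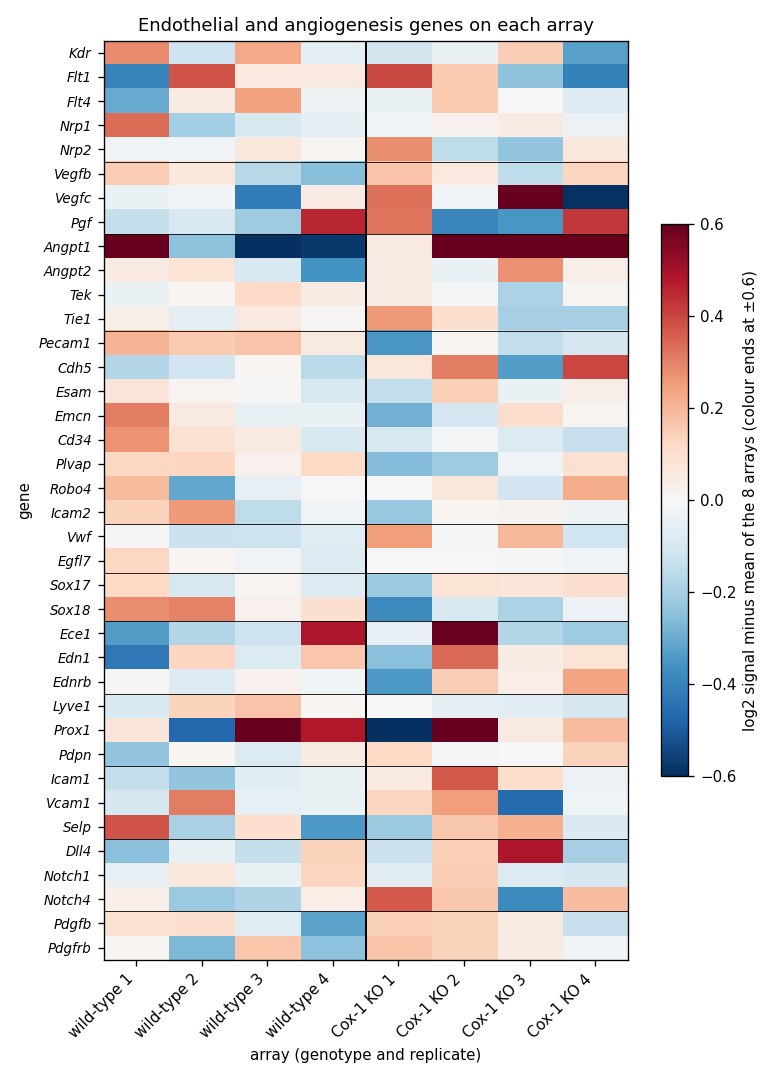
Deviation of log2 signal from the mean of the 8 arrays (colour, which ends at ±0.6) for the 38 tested genes (rows, grouped by role) on each array (columns). Rows of Pecam1 and Sox18 are red or pale in wild-type and blue or pale in Cox-1 KO uterus, and no column is of a single colour.

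A further list of 69 vessel genes that are not among the 40 gave 65 with a tested probe set, and none had an adjusted p under 0.05 (limma). At an unadjusted p under 0.05, 8 were lower and 4 higher in Cox-1 KO uterus, or 12.3% and 6.15%, and the groups did not overlap for the same 8 lower genes (12.3%) and for Apln among the higher ones (1.54%). Over all genes 4.37% were lower and 4.84% higher at that p, and 2.5% and 1.83% had groups that did not overlap. The unequal-variance test of the study's methods gave 7 lower genes and 1 higher at an unadjusted p under 0.05, and none after adjustment. The share of all genes was not computed for that test without its ratio. These counts therefore cannot be set against such a share, and the shares above are those of limma. Of the 12 genes the 5 with the smallest p are given. Apln, the apelin ligand of sprouting endothelium, was 548, 542, 538 and 587 in wild-type replicates 1 to 4, against 738, 672, 704 and 787 in knockout replicates 1 to 4, a ratio of 1.31 with an interval of 1.13 to 1.52 (limma adjusted p = 0.351). Mmrn1, a protein of lymphatic endothelium and platelets, was 3814, 3852, 3914 and 4052 in wild-type replicates 1 to 4, against 3084, 3350, 3319 and 3492 in knockout replicates 1 to 4, a ratio of 0.847 (limma adjusted p = 0.363). For both genes every knockout array lay on one side of every wild-type array.

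The other 3 were lower and are genes of pericytes and veins. Cspg4, or NG2, a proteoglycan of pericytes, was 955, 1102, 1167 and 1115 in wild-type replicates 1 to 4, against 935, 798, 866 and 773 in knockout replicates 1 to 4, with a log2 fold change of -0.36 (limma adjusted p = 0.421). Kcnj8, a potassium channel subunit of pericytes and smooth muscle, was 2642, 2532, 2363 and 2330 in wild-type replicates 1 to 4, against 2095, 2238, 1874 and 1905 in knockout replicates 1 to 4, with -0.28 (limma adjusted p = 0.423). Nr2f2, or COUP-TFII, a factor of venous identity that uterine stroma also makes, was 2711, 2491, 2564 and 2402 in wild-type replicates 1 to 4, against 2005, 2323, 2045 and 2240 in knockout replicates 1 to 4, with -0.24 (limma adjusted p = 0.489). Each had groups that did not overlap. Other genes of pericytes and vascular muscle in the further list had overlapping groups, with -0.17 for Rgs5, -0.18 for Abcc9, -0.14 for Mcam and 0.07 for Notch3, and Pdgfrb, given above, had 0.17. Rgs5 had -0.06 with the yolk sac covariate. With the yolk sac covariate the log2 fold changes were 0.31 for Apln, -0.25 for Mmrn1, -0.42 for Cspg4, -0.20 for Kcnj8 and -0.16 for Nr2f2, and Nr2f2 was the only one of the 5 with an unadjusted p above 0.05 there (0.0794). Over the mean of all its probe sets Nr2f2 had -0.07 (unadjusted p of 0.512), and Cspg4 -0.24. Vegfa, the principal VEGF, had 1654 ± 364 in wild-type against 1527 ± 132 in knockout uterus, and Eng, a co-receptor of endothelium, 2976.25 ± 494 and 3335.5 ± 411 (SD, n = 4 mice each), with limma adjusted p = 0.869 and 0.708.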

How the data were processed

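RNA of whole uterus, 1 mouse an array (4 wild-type, 4 Cox-1 KO), was hybridised to Affymetrix mouse arrays. The deposited intensities are MAS5 signals, which the authors scaled to a target intensity of 1000, for 28000 probe sets without detection calls. How these probe sets were chosen is not given in the sources used here. Signals were put on the log2 scale with no further normalization (array medians 731 to 757), with 1 value set to a floor of 1. Probe sets that reached a signal of 100 on 4 arrays or more (26444 after leaving out 60 array controls) were fitted with limma 3.58.1 (lmFit, eBayes with a trend) in R 4.3.3, Cox-1 KO minus wild-type, with Benjamini-Hochberg adjustment and a threshold of 0.05. The procedure was tested on simulated data. A single gene was also tested by an exact two-sided permutation of the 70 assignments of arrays. The number of arrays limits the precision.

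Genes were named through the platform annotation, from probe sets with 1 symbol. Ptgs1 is not named there, and its probe set was identified from the study's additional material. Promoters and positions come from RefSeq tables, and the motif letters were chosen as stated with the sequences. Values were given on every array for genes with an unadjusted p under 0.05 or groups that did not overlap and for the gene with the smallest p of each role, and a few more were added after their values were seen (Cdh5, Sele, Flt1, Pgf and Prox1). Of the further list the 5 genes with the smallest p were named. The members and lists were chosen with earlier results of these data known. Alternatives were another added constant, a floor, other filters, quantile normalization, median centring, no trend, a replicate block, the yolk sac level as a covariate, arrays left out, averaging the probe sets of each gene and the unequal-variance test of the study's methods.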

Additional observations from a re-analysis of the deposited data

Results flagged for a closer look

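There were 78 groups of 4 arrays (39 genes in each genotype). In each, the gap of the highest or lowest array to its neighbour was set against the range of the group, both on the log2 scale. Of these, 5 groups had a share above Dixon's 95% critical value, where chance gives about 1 in 20, or 3.9. The signals below are linear, and the shares are of the log2 range. Plvap in wild-type uterus had replicate 3 low at 3695 (0.906 of the range). Sox17 in Cox-1 KO uterus had replicate 1 low at 2114 (0.918). Vcam1 in wild-type uterus had replicate 2 high at 1612 (0.844). Sele in wild-type uterus had replicate 1 low at 7 (0.938), below the level that was tested. Notch1 in Cox-1 KO uterus had replicate 2 high at 1179 (0.872).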

How the results depend on the processing

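No gene of the list and no further gene passed the adjusted threshold in any setting run, nor did any gene of the list at an adjusted p under 0.1, while the probe sets past it over the whole array were 3 in the fit reported and 2 to 25 elsewhere (25 without wild-type replicate 1). At an unadjusted p under 0.05 the list had 4 lower genes and 1 higher. The lower genes were 2 without the trend, 2 with the yolk sac covariate, 1 without the 4 arrays high in yolk sac transcripts, 2 by the methods' t-test, 0 with its ratio of 1.5 added, and 2 to 3 with single arrays left out (2 without wild-type replicate 2 or Cox-1 KO replicate 1). The higher genes were 3 without the 4 arrays, 0 by the t-test with or without the ratio, and 0 to 3 with single arrays left out (0 without wild-type replicate 2 or Cox-1 KO replicate 2, 3 without Cox-1 KO replicate 3 or 4). The median log2 fold change of 0.01 was 0.08 with the covariate, 0.09 without the 4 arrays, and -0.01 to 0.05 with single arrays left out. Leaving out the 4 arrays keeps 1 Cox-1 KO array, assumed to vary like the others. Edn1 was -0.02 without wild-type replicate 1, and -0.02 to 0.21 over single arrays left out. The further genes, run after their values were seen, had 4 higher and 8 lower. The higher ones were 2 without the trend, 1 by the t-test, 2 over the mean of all probe sets and 2 to 6 with single arrays left out. The lower ones were 4 with the covariate, 3 without the 4 arrays and 6 to 9 with single arrays left out. Apart from the fit reported and the t-test with its ratio, the share of all genes called was not computed in these settings. The counts therefore cannot be read as shifts of these lists alone. The cause of these shifts was not tested. The study's methods state that balanced groups of samples were processed side by side, and whether replicate numbers mark such groups is not known. Deviations of same-numbered arrays correlated at -0.25, 0.22, -0.18 and 0.17 for replicates 1 to 4. The highest correlation of each wild-type array with a knockout array of another number was 0.28, -0.08, 0.29 and 0.39. A replicate block gave 0 higher and 4 lower genes of the list.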
